A study of Homo sapiens with 10 samples.

Results

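PDZK1 and 9 genes listed as its partners were followed in ARPE-19, an established human retinal pigment epithelium (RPE) cell line. Whether the partners bind PDZK1 in these cells was not measured here. The members were the rows whose gene symbol is PDZK1, SCARB1, SLC22A4, SLC22A5, SLC15A2, SLC19A1, SLC9A3, SLC9A3R1 (listed under its newer symbol NHERF1), CFTR or ABCC2. All 10 were found among the 22626 rows of the deposited count table. Cells were kept for 48 h either in control medium with 5.5 mM glucose and 32 mM mannitol (n = 5) or in high glucose (HG) medium with 37.5 mM glucose (n = 5). Mannitol, a sugar alcohol that cells take up poorly, balances the number of dissolved molecules. HG medium held more glucose and no stated mannitol, and the effects of these cannot be told apart. All libraries came from the same cell line, which is a model of RPE grown in culture. The labels do not say whether the samples of a group were separate cultures, so p-values measure the spread between these samples, which may be technical.

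PDZK1 (also called NHERF3) is a scaffold without enzyme activity. Its PDZ domains hold the tail ends of membrane proteins and keep these proteins at the cell surface, above all at the brush border of kidney and intestine. In liver it stabilises SCARB1, the receptor for high density lipoprotein, and the RPE is an epithelium that moves nutrients such as taurine and folate between blood and retina. The members fall into scaffolds (PDZK1, NHERF1), organic solute carriers (SLC22A4, SLC22A5, SLC15A2, SLC19A1), ion transport proteins (SLC9A3, CFTR), a lipoprotein receptor (SCARB1) and a drug export pump (ABCC2).

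Total counts lay between 32448991 and 45864176 per library, and CPM below means counts scaled to a sequencing depth that is the same for every library. An observed count of 0 is compatible with a true level of up to 3 counts, which is 0.0654 to 0.0925 CPM depending on the library, and this limit covers counting error only. Every pair of libraries within a group differed by more than sampling noise (chi-square per gene between 13.8 and 78.5). HG_1 and control replicate 2 stood apart on the second principal component, and their counts rose with GC content (0.188 and 0.17 log2 units per 10 percentage points, against -0.0916 to -0.00519 in the other 8 libraries). HG libraries are named by their column, because the labels give only their group. Of 13 RPE markers fixed for this comparison, RPE65 was at 0 in 9 of 10 libraries and TTR in all 10, 10 passed the filter on low counts, and 3 of these (KRT8, KRT18 and PMEL) were lower in HG and none was higher, where 7.8% of all tested rows were lower and 15.4% passed in either direction. BEST1, another of the 10, had 164 ± 244 CPM under control conditions and 5.27 ± 2.55 CPM in HG (SD, n = 5 each), and it did not pass (edgeR adjusted p = 0.067). The summed level of the 13 markers was 1544 to 1921 FPKM in the control group and 987.6 to 1295 in HG. Most of this sum came from KRT8 (means of 954.1 and 611.3 FPKM) and KRT18 (689.8 and 431.8 FPKM), which are keratins of many simple epithelia, and the 7 tested markers besides KRT8, KRT18 and PMEL did not pass. Of 5 photoreceptor markers, 2 were tested and did not pass, CRX and GNAT1 had no count in any library, and the sum was 4.55 to 7.61 FPKM in the control group and 5.69 to 8.02 FPKM in HG. Of 4 endothelial markers, CDH5 had no count, 1 was tested and did not pass, and the sum was 0.0277 to 0.0734 FPKM in the control group and 0 to 0.0543 FPKM in HG. Of 4 leukocyte markers, CD3E had no count, PTPRC and ITGAM had at most 4 counts, and CD68, a lysosomal protein of macrophages and many other cells, was the only marker tested. CD68 rose from 70.3 ± 10.5 to 114.2 ± 16.97 CPM (SD, n = 5 each, edgeR adjusted p = 0.00311), and the leukocyte sum was 29.5 to 42.9 FPKM in the control group and 55.7 to 74.8 FPKM in HG. In such bulk RNA, fewer cells that express a gene and less RNA of it per cell cannot be told apart. The part of these marker differences in the results below was not tested.

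PDZK1 has a nearly identical pseudogene, PDZK1P1, on the same chromosome, which makes its count uncertain. PDZK1 (ENSG00000174827) lies on the minus strand at chr1:145670852-145708148 and PDZK1P1 at chr1:147993862-148014956 (GRCh38, GENCODE release 29). Of the 1560 bases of the coding sequence of the PDZK1 transcript compared, 1350 aligned with PDZK1P1 with 5 differences, an identity of 99.6%, and the longest identical run was 640 bases. The 90 coding bases with the most differences, bases 385 to 474, are shown because they carry 3 of the 5, with the differing bases in capitals.
PDZK1: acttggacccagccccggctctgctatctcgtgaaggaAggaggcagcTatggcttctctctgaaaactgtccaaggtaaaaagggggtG
PDZK1P1: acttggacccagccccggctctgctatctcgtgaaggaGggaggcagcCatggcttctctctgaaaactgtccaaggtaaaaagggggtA
A read of the aligned bases that covers none of the differences has the same sequence in both genes. PDZK1P1 has no row in the tables, and how the authors' counting treated such reads is not given in the sources used here.

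PDZK1, the scaffold itself, was the member that differed most between the groups. It had 105, 118, 99, 97 and 60 counts in control replicates 1 to 5, and 11, 14, 24, 9 and 13 in HG_1 to HG_5. The groups did not overlap, and control replicate 5 was the lowest of its group. After scaling, the means were 2.50 ± 0.711 CPM for control and 0.366 ± 0.106 CPM for HG (SD, n = 5 each). PDZK1 thus fell by 85.2%, with a fitted log2 fold change of -2.75 (standard error 0.29) and a 95% interval from -3.41 to -2.10. The study chose PDZK1 partly from these libraries, so this change is given as a description and without a p-value. For the same reason its interval is not read as a test.

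NHERF1 (ENSG00000109062, chr17:74748652-74769353), a scaffold of the same family that links membrane proteins to ezrin and the actin cortex, was by far the most abundant member. Its level per transcript length was 360.2 ± 20.9 FPKM in the control group and 335.8 ± 29.2 FPKM in HG (SD, n = 5 each), above that of 98.9% of the tested rows in both groups. On the CPM scale it was at 725.5, 866.1, 758.8, 778.9 and 749.8 in control replicates 1 to 5, and at 857.4, 692.8, 688.1, 653.2 and 706.2 in HG_1 to HG_5. HG_1 lay inside the control range and the other 4 HG libraries lay below every control. The log2 fold change was -0.11 with a 95% interval from -0.28 to 0.068 and did not pass (edgeR adjusted p = 0.404). Without HG_1 it was -0.18 and passed (edgeR adjusted p = 0.0434). Of its exonic bases, 11.3% are also exons of an antisense gene that has no row. Within a library, NHERF1 was between 240.2 and 582.4 times the FPKM of PDZK1 in the control group and between 1318 and 3424 times in HG.

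**Figure D1:**
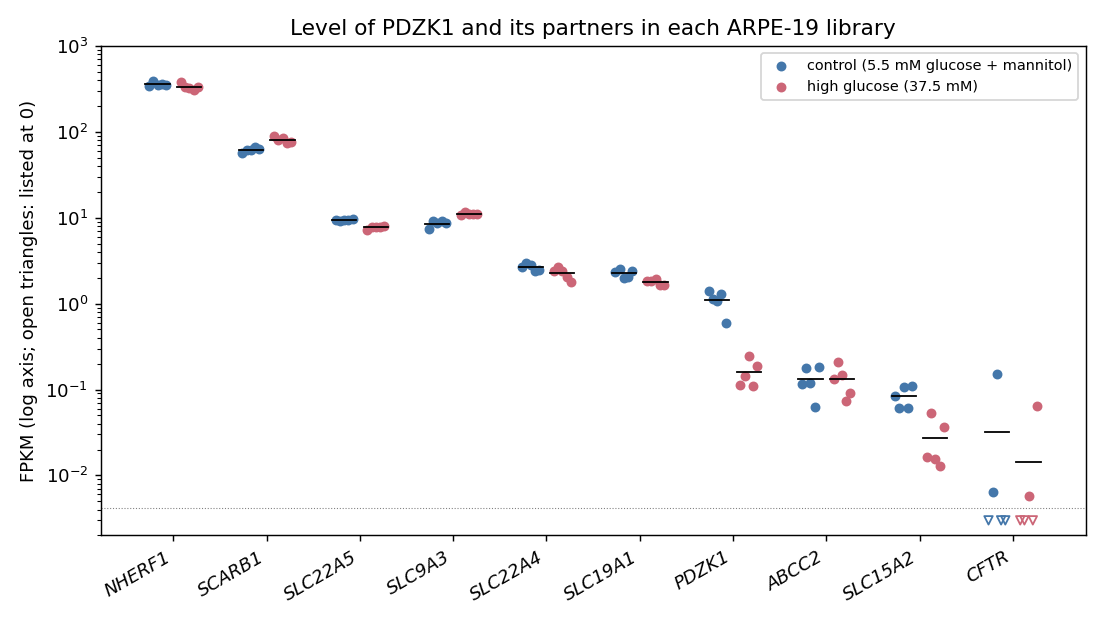
FPKM, a level per transcript length, of the 10 members on a log axis in the 5 control libraries (blue) and the 5 HG libraries (red), with black lines at the group means and open triangles for libraries listed at 0. The members span from over 300 FPKM (NHERF1) to a CFTR row with no count in most libraries, and PDZK1 is the member whose groups lie farthest apart.

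The partners were expressed at very different levels. In the control group the order by FPKM was NHERF1 (360.2), SCARB1 (61.8), SLC22A5 (9.41), SLC9A3 (8.55), SLC22A4 (2.65), SLC19A1 (2.26), PDZK1 (1.10), ABCC2 (0.131), SLC15A2 (0.0846) and CFTR (0.0319). SLC22A4 and SLC19A1 overlapped in their libraries, as did ABCC2 with SLC15A2 and SLC15A2 with CFTR, and all other neighbours in this order were apart. In HG the order differed at 1 place only, where SLC9A3 (11.1 FPKM) stood above SLC22A5 (7.73 FPKM). PDZK1 kept its rank but came down to 0.161 FPKM, where its libraries overlapped those of ABCC2 (0.131 FPKM).

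The background for the changes is that 2303 of 14936 tested rows, 15.4%, had an adjusted p under 0.05 (edgeR quasi-likelihood test with Benjamini-Hochberg adjustment over all rows), with 7.62% higher and 7.8% lower in HG, and that 13.6% of rows did not overlap between the groups. Of the 7 partners that reached the level of the filter on low counts in all 10 libraries, 4 passed. SCARB1 and SLC9A3 were higher in HG, and SLC22A5 and SLC19A1 were lower. SLC22A4, NHERF1 and ABCC2 did not pass. The members were chosen with earlier results known, so this share says nothing on such partners in general.

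**Figure D2:**
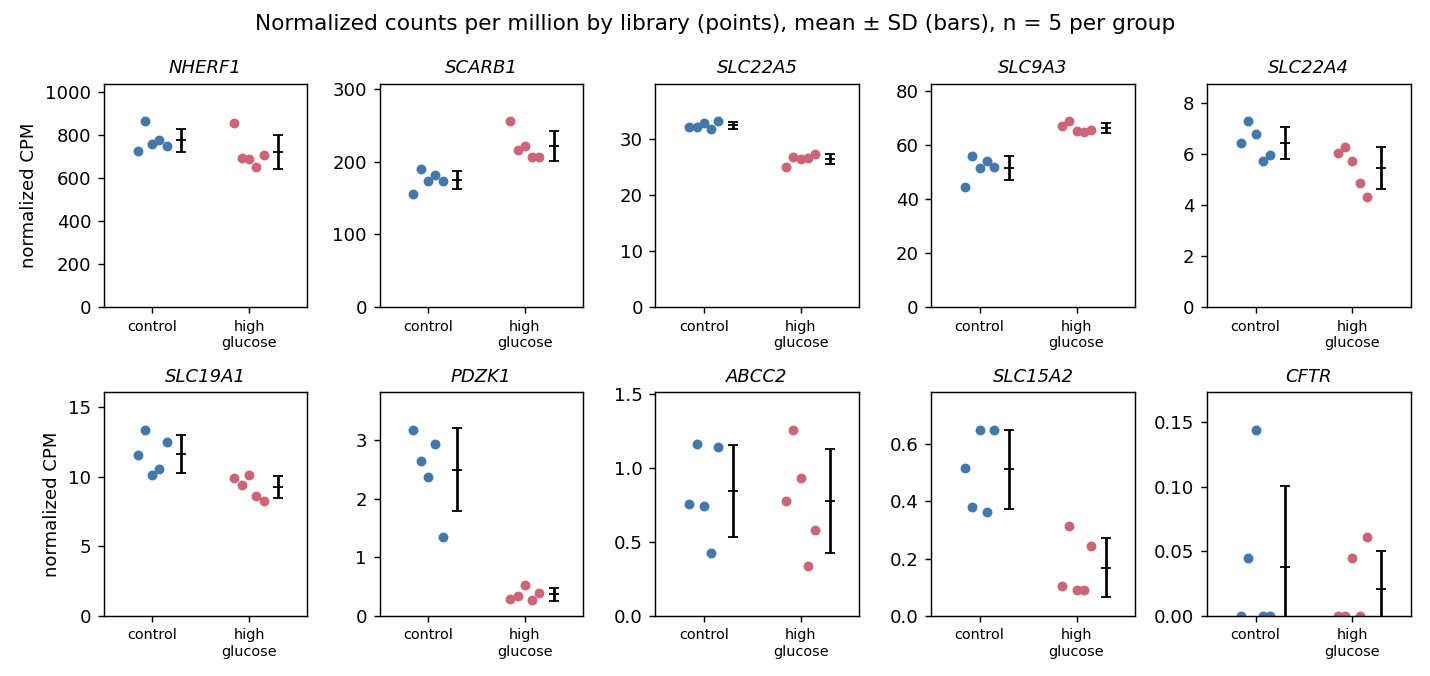
Normalized CPM of each member by library (points, control in blue and HG in red) with the mean and SD beside them (n = 5 per group), each panel with its own linear axis from 0. The groups are apart for SCARB1, SLC9A3, SLC22A5, PDZK1 and SLC15A2, touch for SLC19A1, and overlap for NHERF1, SLC22A4, ABCC2 and CFTR, whose SD bars are drawn from 0 upwards only.

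SCARB1 (ENSG00000073060, minus strand, chr12:124776856-124882668), the receptor through which cells take up cholesterol esters from high density lipoprotein, rose in HG. It was at 156.2, 190.5, 173.6, 181.1 and 173.8 CPM in control replicates 1 to 5 and at 256.3, 215.7, 221.5, 206.8 and 206.4 CPM in HG_1 to HG_5. All 5 HG libraries were above all 5 control libraries, and HG_1 was the highest. The log2 fold change was 0.34 (standard error 0.071, edgeR adjusted p = 0.00889), a rise of 26.4%. It stayed past the threshold with each library left out in turn, between 0.28 (without HG_1) and 0.37. No other annotated gene overlaps SCARB1.

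SLC9A3 (ENSG00000066230, minus strand, chr5:470458-524332), the sodium-proton exchanger NHE3 of brush borders, was also higher in HG. It was at 44.3, 56.0, 51.4, 54.0 and 51.8 CPM in control replicates 1 to 5 and at 67.0, 68.9, 65.2, 64.7 and 65.6 CPM in HG_1 to HG_5. The HG libraries were close to each other and above every control. The log2 fold change was 0.36 (standard error 0.062, edgeR adjusted p = 0.00284), a rise of 28.7%. What this row counts is uncertain. Of the 5635 exonic bases of SLC9A3, 41.9% are also exons of the noncoding gene PP7080 on the same strand, which has no row, 14.9% are exons of EXOC3 on the other strand, and 14.7% are exons of SLC9A3-AS1, also on the other strand and without a row. EXOC3, a subunit of the exocyst, had 68.7 ± 3.72 CPM under control conditions and 73.5 ± 6.26 CPM in HG (SD, n = 5 each) and did not pass (log2 fold change 0.097, edgeR adjusted p = 0.373). Reads of SLC9A3 and PP7080 in the shared bases cannot be told apart.

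SLC22A5 and SLC22A4 are neighbouring genes on chromosome 5 that encode OCTN2, the high-affinity carnitine carrier, and OCTN1, a carrier of ergothioneine. SLC22A5 (ENSG00000197375, chr5:132369752-132395614) fell. It was at 32.1, 32.3, 32.8, 31.9 and 33.3 CPM in control replicates 1 to 5 and at 25.1, 26.9, 26.5, 26.7 and 27.4 CPM in HG_1 to HG_5. The libraries of a group lay close together, with a coefficient of variation of 1.74% in the control group and 3.21% in HG, and the groups did not overlap. Its log2 fold change was -0.29 (standard error 0.044, edgeR adjusted p = 0.00149), and it fell by 18.4%.

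SLC22A4 (ENSG00000197208, chr5:132294443-132344206) was at 6.43, 7.31, 6.80, 5.72 and 5.95 CPM in control replicates 1 to 5 and at 6.05, 6.28, 5.73, 4.86 and 4.32 CPM in HG_1 to HG_5. The groups overlapped. Of its exonic bases, 8.74% are also exons of MIR3936HG on the other strand, which has no row. Its log2 fold change of -0.24 did not pass (edgeR adjusted p = 0.238), and the 95% interval from -0.53 to 0.047 includes the value of SLC22A5. Whether the 2 carriers changed by different amounts was not tested.

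SLC19A1 (ENSG00000173638, minus strand, chr21:45493572-45544411), the reduced folate carrier RFC, was at 11.5, 13.4, 10.1, 10.5 and 12.5 CPM in control replicates 1 to 5. In HG_1 to HG_5 it was at 9.90, 9.40, 10.07, 8.60 and 8.21 CPM. The lowest control (10.075) and the highest HG library (10.074) all but touched. The log2 fold change was -0.33 (standard error 0.099, edgeR adjusted p = 0.0475), so it passed narrowly. With a single library left out it passed only without HG_1 or without control replicate 3, and in the other 8 fits the adjusted p reached up to 0.109. Of its exonic bases, 14.0% are also exons of COL18A1 on the other strand, a collagen gene at 116 ± 21.3 CPM in the control group and 82.5 ± 20.03 CPM in HG (SD, n = 5 each; edgeR adjusted p = 0.0815). The labels do not state whether counting used strand, and the part of COL18A1 in the SLC19A1 counts was not tested.

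SLC15A2 (ENSG00000163406, chr3:121894089-121944102), the peptide carrier PEPT2, was close to the detection limit. It had 17, 17, 27, 12 and 29 counts in control replicates 1 to 5 and 4, 13, 4, 3 and 8 in HG_1 to HG_5. Scaled for library size, the groups did not overlap, but HG_2 (0.315 CPM) came close to control replicate 4 (0.363 CPM). SLC15A2 reached the level of the filter in all 5 control libraries and in 1 HG library, so it was tested only because the control group was high, and a difference was then to be found. The log2 fold change was -1.59 (standard error 0.41). Its edgeR adjusted p of 0.0248 is for this reason not read as support, and SLC15A2 no longer passed without HG_3, without HG_4 or without control replicate 1, 3 or 5, where the adjusted p was up to 0.0655.

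ABCC2 and CFTR gave no difference that could be measured at this depth. ABCC2 (ENSG00000023839, chr10:99782640-99852594), the pump MRP2 that exports conjugated compounds, had 25, 52, 31, 14 and 51 counts in control replicates 1 to 5. In HG_1 to HG_5 it had 30, 52, 42, 11 and 19 counts. The groups overlapped throughout, and the 95% interval of the log2 fold change ran from -0.98 to 0.74 around -0.12 (edgeR adjusted p = 0.876). CFTR (ENSG00000001626, chr7:117465784-117715971), the chloride channel of secretory epithelia, had 6 counts in control replicate 3, 2 counts each in control replicate 2, HG_3 and HG_5, and 0 in the other 6 libraries. It did not pass the filter, its mean was 0.0378 CPM in the control group and 0.0211 CPM in HG, and a two-sided exact permutation test gave p = 0.722. A CFTR level below the limit of 3 counts in these libraries cannot be told from 0.

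**Figure D3:**
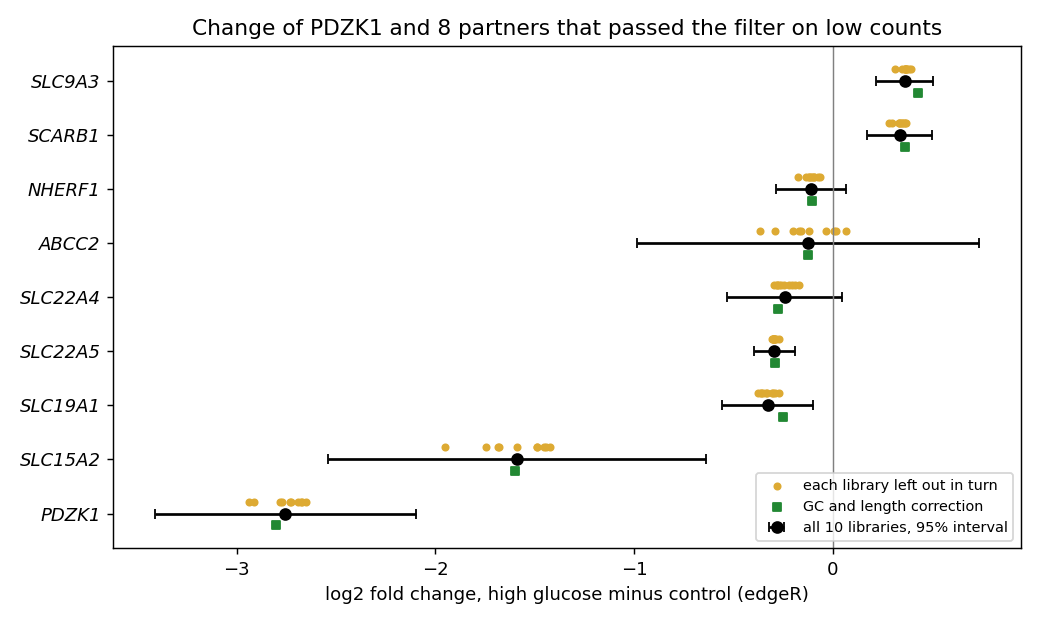
Log2 fold change (HG minus control, edgeR) of PDZK1 and the 8 partners that passed the filter on low counts, with its 95% interval (black), the 10 fits that each leave out 1 library (yellow) and a correction for GC content and length (green). PDZK1 lies at -2.75, SLC15A2 at -1.59, and the other members between -0.33 and 0.36.

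The 7 partners at the level of the filter in all libraries had smaller fitted changes than the scaffold. Their log2 fold changes lay between -0.33 (SLC19A1) and 0.36 (SLC9A3), in both directions. PDZK1, which the study chose partly from these libraries, was at -2.75, so this contrast is a description only. The ratio of SLC9A3 to SLC22A5 in FPKM was 0.774, 0.994, 0.912, 0.970 and 0.899 in control replicates 1 to 5. In HG_1 to HG_5 it was 1.497, 1.48, 1.40, 1.41 and 1.40. In FPKM the ratio was thus below 1 in every control and above 1 in every HG library, with the doubt about the SLC9A3 row named above. In CPM, which is not divided by length, the ratio of the group means was above 1 in both groups, at 1.59 in the control group and 2.50 in HG, so the crossing holds on the FPKM scale only.

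The promoters of the members differed in base composition, a feature not used to choose them. RefSeq windows of 300 bases (250 before and 50 after a transcription start, GRCh38.p14) were at hand for 9 of the 10 members, SCARB1 being without an entry. CG pairs numbered 47 in SLC9A3, 42 in NHERF1, 36 in SLC22A5 and 29 in SLC22A4, against a median of 14 over 27305 promoters. There were 12 in CFTR, 4 in PDZK1, 1 in ABCC2 and 0 in SLC15A2. SLC19A1 has 4 annotated windows with between 5 and 46 CG pairs, and which start these cells use was not measured. The windows of PDZK1 (minus strand, chr1:145707351-145707650), SLC15A2 (plus strand, chr3:121894151-121894450) and SLC9A3 (minus strand, chr5:524400-524699) are shown because they stand for both ends of this range, with each CG pair in capitals. SLC9A3 with 47 CG pairs rose and SLC22A5 with 36 fell, while SCARB1, which also rose, has no window. A link between CG pairs and direction was not tested.
PDZK1: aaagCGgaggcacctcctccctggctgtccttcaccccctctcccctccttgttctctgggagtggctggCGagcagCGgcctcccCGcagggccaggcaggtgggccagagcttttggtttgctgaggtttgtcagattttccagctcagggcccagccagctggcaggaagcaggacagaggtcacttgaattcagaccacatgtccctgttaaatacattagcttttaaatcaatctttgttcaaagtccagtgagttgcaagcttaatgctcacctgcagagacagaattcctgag
SLC15A2: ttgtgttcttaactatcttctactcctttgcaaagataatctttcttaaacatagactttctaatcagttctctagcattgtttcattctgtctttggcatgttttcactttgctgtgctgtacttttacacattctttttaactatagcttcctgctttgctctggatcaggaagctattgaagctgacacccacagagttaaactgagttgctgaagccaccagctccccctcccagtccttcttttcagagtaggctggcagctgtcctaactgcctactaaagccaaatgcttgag
SLC9A3: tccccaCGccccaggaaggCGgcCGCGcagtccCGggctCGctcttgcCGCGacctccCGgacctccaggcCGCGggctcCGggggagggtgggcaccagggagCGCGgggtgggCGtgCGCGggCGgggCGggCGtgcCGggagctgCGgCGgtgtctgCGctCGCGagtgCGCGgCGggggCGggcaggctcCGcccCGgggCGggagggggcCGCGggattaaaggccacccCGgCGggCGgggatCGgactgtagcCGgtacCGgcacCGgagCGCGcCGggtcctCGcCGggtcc
The hexamer GGGCGG, the core of the GC box, was counted on both strands, without matches that overlap an earlier one on the same strand. It occurred 5 times each in SLC9A3, NHERF1 and SLC22A4, 4 times in SLC22A5, between 0 and 4 times in the SLC19A1 windows, and 0 times in PDZK1, SLC15A2, ABCC2 and CFTR, while 44.6% of all promoters hold it. The hexamer AGGTCA, a binding half-site of many nuclear receptors, occurred 1 time each in PDZK1, CFTR and 2 of the SLC19A1 windows, counting both strands, and is held by 13.9% of all promoters. CACGTG, an E-box, was in the window of SLC22A4, in 1 window of SLC19A1 and in 7.43% of all promoters. These are matches of letters in a window and were not tested for binding.

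Other genes around PDZK1 were taken from 6 lists of related genes. They hold 67 genes, of which 47 were tested and 9 passed, 5 higher and 4 lower in HG. That is 19.1% of those tested, beside 15.4% of all rows, and the median log2 fold change over all rows was 0.0013. The share is near the background and is no result about these genes.

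Among 10 PDZ scaffolds and actin linkers, 8 were tested and 1 passed, with a median log2 fold change of -0.093. EZR (ezrin), which ties NHERF1 to actin filaments under the apical membrane, fell from 777.7 ± 27.9 to 660.7 ± 38.1 CPM (SD, n = 5 each; log2 fold change -0.24, edgeR adjusted p = 0.00769). MSN (moesin) and RDX (radixin), the other members of the ezrin family, were at -0.12 and 0.044 and did not pass. The scaffold NHERF2 was at -0.099 (edgeR adjusted p = 0.628), and NHERF4 had at most 3 counts in a library. PDZK1IP1, a small membrane protein named for binding PDZK1, had at most 16 counts and did not pass the filter.

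Of 16 other known or reported ligands of PDZK1, 8 had no count in any library, among them SLC22A12 (the urate exchanger URAT1), SLC17A1, SLC34A1 and SLC15A1 of the kidney and intestine. The remaining 8 were tested, and 3 passed. ABCG2, a pump that exports urate and many drugs, rose from 12.8 ± 0.970 to 18.95 ± 2.93 CPM (SD, n = 5 each; log2 fold change 0.57, edgeR adjusted p = 0.00417). SLC34A3, a phosphate carrier, rose from a low 0.738 ± 0.179 to 1.44 ± 0.349 CPM (edgeR adjusted p = 0.0226). SLCO1A2, an organic anion carrier, fell from 1.49 ± 0.220 to 0.598 ± 0.302 CPM (edgeR adjusted p = 0.022), and 4 of 5 HG libraries reached the level of the filter. CLCN3, SLC26A6, AKAP10, FARP2 and ABCC4 did not pass.

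SLC6A6, the taurine carrier TAUT, fell from 43.6 ± 4.50 to 33.7 ± 1.82 CPM (SD, n = 5 each; log2 fold change -0.37, edgeR adjusted p = 0.00701), with no overlap between the groups. Among 5 genes of folate entry besides SLC19A1, 3 were tested and none passed. The proton-coupled folate carrier SLC46A1 was at 0.097 (edgeR adjusted p = 0.497) and FOLR3 at 0.34 (edgeR adjusted p = 0.0796). FOLR1, the folate receptor usually named for RPE, had at most 8 counts and was at 0 in 8 libraries.

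Among 29 paralogues of the partners, 23 were tested and 4 passed. SLC19A2, a thiamine carrier of the family of SLC19A1, rose from 30.3 ± 2.51 to 46.4 ± 4.97 CPM (SD, n = 5 each; log2 fold change 0.61, edgeR adjusted p = 0.000994). ABCC1, an export pump of the family of ABCC2, fell from 89.4 ± 6.22 to 65.4 ± 3.60 CPM (log2 fold change -0.45, edgeR adjusted p = 0.000711). SLC22A3, an organic cation carrier, and SCARB2, a lysosomal membrane protein, were higher with overlapping groups (log2 fold changes 0.29 and 0.21, edgeR adjusted p = 0.0185 and 0.0495). The sodium-proton exchangers SLC9A5 to SLC9A9 lay between -0.055 and 0.072 and did not pass.

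Of 8 nuclear receptors and hepatocyte nuclear factors, several of which are reported to act on PDZK1 in other tissues, 5 were tested and none passed. PPARA was at -0.37 with a standard error of 0.44 (edgeR adjusted p = 0.648), and RXRA at -0.066 (edgeR adjusted p = 0.501). HNF4A had 3 counts in 1 library and 0 in the other 9.

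**Figure D4:**
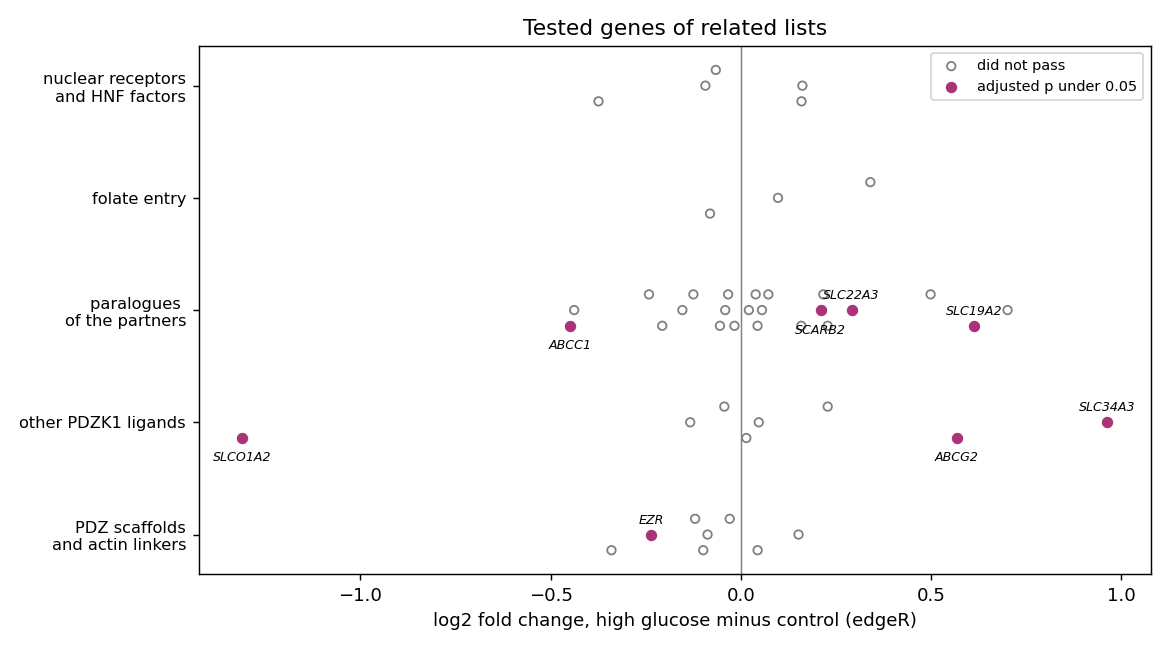
Log2 fold change (HG minus control, edgeR) of the tested genes of 5 of the related lists, each point 1 gene, with genes past an adjusted p of 0.05 filled and named. The named genes lie on both sides of 0, from SLCO1A2 at -1.31 to SLC34A3 at 0.96, and most genes lie near 0.

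The rows with a pattern most like that of PDZK1 over the 10 libraries were UPK3B, NPPB, KRT13, KCND3 and TMC3. The measure was the root mean square difference of log2 CPM after centring each row on its own mean, which was 0.454, 0.458, 0.478, 0.498 and 0.523 log2 units. These 5 were the nearest of 13420 rows with a gene symbol. NPPB, which encodes a natriuretic peptide, had means of 18.8 and 4.19 CPM in the control and HG groups, and KRT13, a keratin, 11.4 and 2.40 CPM. UPK3B, a uroplakin of epithelial surfaces, had 4.39 and 0.962 CPM. All 5 were lower in HG with log2 fold changes between -2.25 and -1.98. They were picked by this pattern, so the values are a description.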

How the data were processed

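RNA of ARPE-19 cells in control or high glucose medium was sequenced in 10 libraries. The authors deposited read counts per gene, whole numbers without normalization, and FPKM values, scaled by the authors for gene length and depth. The submitters' processing notes name fastp 0.20.1, HISAT2 2.2.1 and GRCh38. The counting program, annotation and strand setting are not given in the sources used here.

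Counts were compared with edgeR 4.0.16 (R 4.3.3) over all 14936 rows that passed its default filter (about 0.249 CPM in at least 5 libraries), with TMM normalization, the quasi-likelihood test and Benjamini-Hochberg adjustment. Standard errors are the log2 fold change divided by the root of F, and 95% intervals use the residual degrees of freedom. CPM values are scaled to the TMM library size. CFTR, below the filter, was tested by exact permutation over 252 arrangements. Levels between genes were compared in FPKM. The steps were tested on simulated counts.

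Genes named are the 10 members, genes of the fixed lists and the 5 rows most like PDZK1. Members and lists were chosen with earlier results of these data known. Alternatives were DESeq2 1.42.0, RLE factors, library size alone, 2 other filters, limma 3.58.1 on log2(FPKM + 1) and log2(FPKM + 0.1), 1 surrogate variable from sva 3.50.0, a block by column number and libraries left out. A lowess correction (span 0.3) for GC content and transcript length was chosen after seeing the data. Total counts of 32448991 to 45864176 leave members under 30 counts with a large counting error. Some genes of the lists are not reported here by name.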

Additional observations from a re-analysis of the deposited data

Results flagged for a closer look

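NHERF1 in HG_1 lay far from the other HG libraries, at 857.4 CPM against 653.2 to 706.2, a gap of 0.741 of the range of the group. HG_1 is also a library whose counts rise with GC content. This was the only such library in 20 groups of 5 values (10 members in 2 groups), where chance alone gives about 1.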

How the results depend on the processing

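PDZK1 kept its direction in every alternative that gave it a value. SCARB1, SLC22A5 and SLC9A3 kept their direction in every alternative, and also their side of the threshold, except SCARB1 with the replicate block. PDZK1 lay between -2.94 and -2.65 with 1 library left out and between -2.80 and -0.84 in the other settings, the last on the log2(FPKM + 1) scale, which understates low genes. With 1 library left out, SLC19A1 lay between -0.37 and -0.27, SLC15A2 between -1.95 and -1.42, NHERF1 between -0.18 and -0.065, ABCC2 between -0.36 and 0.065, the genes called between 1648 and 2993 and those of the related lists between 7 and 10. ABCC2, which never passed, turned positive without HG_4 (0.065), control replicate 2 (0.020) or control replicate 5 (0.0086).

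Calls were lost for SLC19A1 with no filter (-0.32) and for SLC15A2 with limma on log2(FPKM + 1) (-0.079) and log2(FPKM + 0.1) (-0.54). Without HG_1 and control replicate 2 together, 4035 genes were called, SCARB1 (0.31), SLC9A3 (0.39) and SLC22A5 (-0.28) still passed, SLC15A2 was at -1.55, SLC19A1 was at -0.30 and lost, NHERF1 at -0.14 and gained, and ABCC2 at 0.021. With 1 surrogate variable 4923 genes and 16 of the related lists were called, NHERF1 (-0.15) among the gains. The GC and length correction gave 3965 genes. In CPM, which ignores length, SLC9A3 was 1.59 times SLC22A5 in the control group and 2.50 times in HG, against 0.909 and 1.44 in FPKM.

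The labels number only the control samples. With the column number as a replicate block, 1071 genes and 4 of the related lists were called, and SCARB1 (0.34), SLC15A2 (-1.69) and SLC19A1 (-0.32) did not pass. Same-numbered columns did not deviate together (correlations between -0.0656 and 0.0392), so the numbers were not taken to pair samples. When every library had to hold at least 10 counts, PDZK1 and SLC15A2 gave no value. The cause of these changes was not tested.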

Other observations

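The deposited FPKM of CFTR was not a fixed multiple of its counts. HG_3 and HG_5 had 2 counts each, yet 0.0058 and 0.0651 FPKM, and control replicates 2 and 3 had 2 and 6 counts with 0.00649 and 0.153 FPKM. The length implied by counts, FPKM and library total varied 8.22 times between libraries for CFTR, 1.45 times for ABCC2, 1.22 times for SLC15A2, 1.18 times for PDZK1, 1.12 times for SCARB1, 1.06 times for SLC19A1, 1.04 times for SLC22A5 and 1.01 times for NHERF1, SLC9A3 and SLC22A4. For the CFTR row, FPKM therefore adds a spread that the counts do not have.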
